A study of Mus musculus with 9 samples.

Results

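The T cell receptor signalling machinery was followed in mouse regulatory T cells (Tregs) with and without the histone methyltransferase Ezh2, as 40 genes for receptor chains, kinases, adaptors, negative regulators and downstream effectors. The genes were chosen by symbol, with earlier results of these data known. All 40 were found among the 43432 Ensembl genes of the count table. RNA sequencing of 9 libraries compared 4 Ezh2-deficient with 5 WT cultures of sorted Tregs from C57BL/6 mice, grown for 4 days with 2000 U/ml interleukin-2 after stimulation by beads that carry antibodies to CD3 and CD28. All 9 carried Foxp3-Cre-GFP and R26-LSL-RFP, that is, a Cre recombinase with a green reporter under the Treg gene Foxp3 and a red reporter that Cre switches on. The Ezh2-deficient cells were Ezh2-fl/fl, with both alleles floxed, WT replicates 2 to 5 were Ezh2-+/+, and WT replicate 1 was Ezh2-fl/+, with 1 floxed allele. Deletion was thus limited to cells that express Foxp3, and all cells had been stimulated through the receptor under study, with no resting sample in the comparison.

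The T cell receptor itself has no enzymatic activity. Its CD3 chains carry tyrosine motifs that the Src-family kinase Lck phosphorylates, which recruits the kinase Zap70, and Zap70 phosphorylates the adaptors Lat and Slp-76 (Lcp2), on which phospholipase C gamma 1 (Plcg1) is activated. Diacylglycerol then drives Ras through Rasgrp1 and NF-kappaB through protein kinase C theta (Prkcq), while calcium drives calcineurin and the NFAT factors. Phosphatases, the kinase Csk, Cbl ubiquitin ligases and diacylglycerol kinases restrain the cascade, and Tregs depend on it for their development and their suppressive function. Ezh2 carries the enzymatic activity of Polycomb repressive complex 2, which methylates histone H3 at lysine 27 and binds mainly at promoters rich in CG dinucleotides.

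Total counts were 33718125 to 62201921 per Ezh2-deficient and 32469450 to 59796319 per WT library. Ezh2 was at 153 to 167 CPM (counts scaled to the library size) in the Ezh2-deficient and 234 to 360.3 CPM in the WT libraries, without overlap (log2 change -0.88, adjusted p = 0.000363); the counts sum over all exons of the gene, deleted or not. Foxp3 was at 1647 to 1968 against 1293 to 1542 CPM and the receptor alpha constant gene Trac at 389 to 449 against 336 to 457 CPM, so these defining markers were present throughout. Foxp3 was higher without Ezh2, with no overlap (log2 change 0.30, adjusted p = 0.0313), and Trac did not pass (log2 change 0.04, adjusted p = 0.78). A score over 32 hypoxia response genes put Ezh2-deficient replicates 1 and 4 and WT replicates 1, 2 and 4 in a high set and the other 4 libraries in a low set, and 0 of the 32 genes passed the test between the genotypes, where 21.9% of all genes did. Their spread within groups was wide: the median SE was 0.424 and the median absolute log2 fold change 0.35, against 0.134 and 0.242 over all genes. Treg markers (10 of 10 tested, 4 higher and 0 lower without Ezh2) summed to 13928 to 14643 CPM without Ezh2 and 11666 to 12775 CPM in WT, and pan-T cell markers (7 of 7 tested, 1 higher) to 5210.1 to 5613 CPM without Ezh2 and 4622 to 5392 CPM in WT. Summed CD8 T cell markers (9 of 9 tested, 1 higher) were at 33.0 to 217 CPM without Ezh2 and 39.8 to 195 CPM in WT, with Cd8a at 0.361 to 97.6 CPM. Gamma-delta T cell markers (4 of 6 tested, 3 higher and 1 lower) summed to 40.1 to 77.7 CPM without Ezh2 and 8.64 to 19.5 CPM in WT, through the Tcrg constant genes. B cell markers (9 of 10 tested, 2 lower) summed to 426 to 578 CPM without Ezh2 and 568 to 857 CPM in WT, mostly from Ighm. Myeloid markers (3 of 10 tested, 2 higher) summed to 23.4 to 30.6 CPM without Ezh2 and 11.7 to 19.7 CPM in WT, mostly from Itgam, with Csf3r at 0 in every library and Lyz2 at most 0.113 CPM. NK cell markers (3 of 9 tested) summed to at most 4.41 CPM without Ezh2 and 5.82 CPM in WT, with Ncr1 at 0. Markers of stroma and other cells (5 of 10 tested, 1 higher) summed to 217 to 265 CPM without Ezh2 and 191 to 241 CPM in WT, mostly from Pecam1, which T cells also express. Whether these marker transcripts came from other cell types or from the Tregs was not tested, nor was the part of any such cells in the results below. With bulk RNA fewer cells of a type and less RNA per cell cannot be told apart.

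All 40 genes passed the filter on low counts, and in WT Tregs their mean levels ran from 39.2 CPM for Sos1 to 1571 CPM for Ptprc. Per kilobase of annotated exon the highest was Ptprc, which encodes the receptor phosphatase CD45, at 307 ± 33.4 CPM per kilobase (SD, n = 5), followed by the adaptor gene Lat at 295 ± 15.7, the kinase gene Lck at 276 ± 23.6, the diacylglycerol kinase gene Dgka at 255 ± 15.5 and Cd3g at 231 ± 36.8. These neighbours in the order differed by less than the sum of their SDs. The CD3 chains Cd3d and Cd3e followed at 186 ± 18.9 and 159.9 ± 9.16, whereas the zeta chain Cd247 was lower, at 66.9 ± 5.37 CPM per kilobase. The lowest levels per kilobase were those of the Ras exchange factor gene Sos1 (4.64 ± 0.655), Ubash3a (10.7 ± 0.995) and Themis (11.4 ± 4.21). In Ezh2-deficient Tregs the same 5 genes led, with Ptprc at 468 ± 49.0, Lat at 281 ± 23.5 and Cd3g at 242 ± 5.69 CPM per kilobase (SD, n = 4), while Rasgrp1 moved from position 18 to position 8 of the 40. The spread within the WT group was smallest for Cd4, with a coefficient of variation of 3.30%, and largest for Tec and Themis, at 37.0% and 37.0%.

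**Figure D1:**
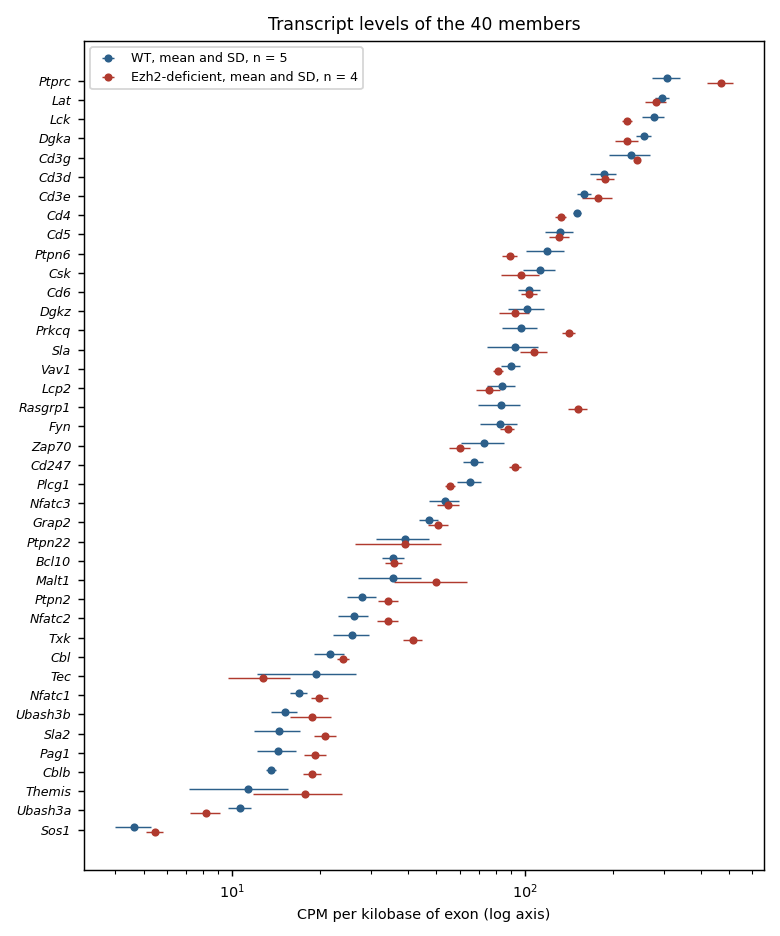
Mean level of each of the 40 genes in CPM per kilobase of exon (log axis), with SD over 5 WT (blue) and 4 Ezh2-deficient libraries (red), ordered by the WT mean. Ptprc, Lat, Lck, Dgka and Cd3g were the 5 highest in both groups, and the red point lies clear of the blue one for genes such as Rasgrp1, Prkcq, Cd247 and Txk.

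Against WT, Ezh2-deficient Tregs had higher transcript levels of 11 and lower levels of 3 of the 40 genes, and 26 did not pass the test (edgeR's quasi-likelihood test, Benjamini-Hochberg adjusted p under 0.05 over 13685 genes). Among all tested genes 21.9% passed, 13.1% upward and 8.8% downward. Among the 5551 genes with a WT mean within the range of the 40, 23.8% passed, 12.3% rose and 11.5% fell. The 11 that rose were Rasgrp1, Txk, Ptprc, Prkcq, Sla2, Cd247, Cblb, Pag1, Nfatc2, Ptpn2 and Nfatc1, and the 3 that fell were Ptpn6, Ubash3a and Lck. The estimated changes were small: the called ones were 1.17-fold to 1.83-fold, and none of the 40 reached 2-fold. Of the 13685 tested genes, which include genes at lower levels, 1179 did. The 95% intervals of Themis, Tec and Rasgrp1 extended past 2-fold (log2 -0.15 to 1.44, -1.20 to 0.01 and 0.61 to 1.13). The median log2 fold change of the 40 was 0.0794, against 0.00262 over all tested genes, and the median absolute log2 fold change was 0.229 against 0.242. Of the 14 called genes 12 had separate groups, as did Cd4, where the groups of 21.2% of all tested genes were separate. In 10 of the 40 all Ezh2-deficient libraries lay above all WT libraries (12.5% of tested genes) and in 3 below (8.69%). DESeq2 called 10 rises and 6 falls (24.2% of its genes passed), limma-voom 10 and 3 (21.8%), a fit with the hypoxia score as covariate 14 and 5 (28.6%), and the fit without the library of highest Cd8a in each group (replicate 4 in both) 10 and 1 (14.7%). Replicate 4 also had the highest hypoxia score of each group (6.95 without Ezh2 and 7.02 in WT). Cd8a, the score and the smaller number of libraries thus cannot be told apart in that last fit. Without 1 library the number of rises was 7 to 10. It was 7 without Ezh2-deficient replicate 1 or without Ezh2-deficient replicate 3, where 15.5% and 14.1% of all genes passed. The number of falls was 2 to 5, and 5 without WT replicate 5, where 23.4% of all genes passed.

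**Figure D2:**
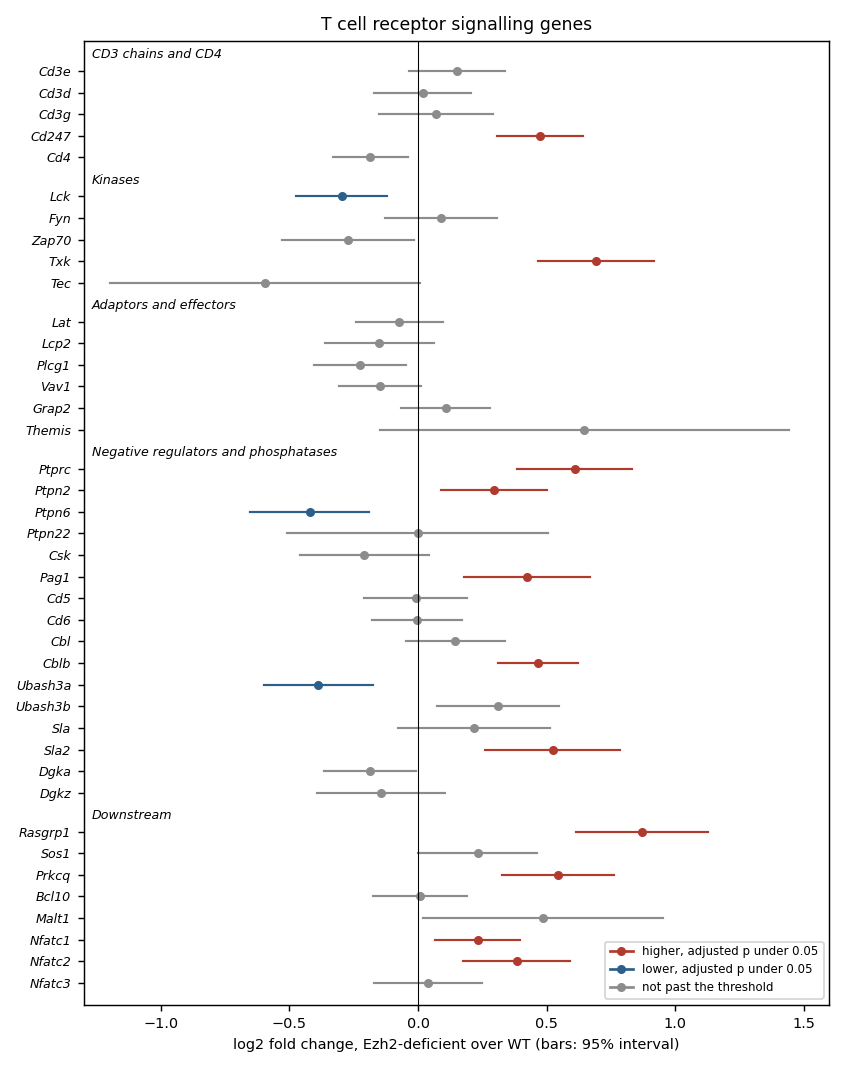
Log2 fold change of each gene, Ezh2-deficient over WT, with its 95% interval, by role; red marks genes past the threshold upward, blue downward and grey the rest. The downstream genes lie at or right of 0, the 6 adaptors have no colored point, and the negative regulators lie on both sides.

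The promoter windows matched for called genes, 8 that rose and 3 that fell, ranged from 1 to 30 CG dinucleotides. No window was matched for Pag1, Ptpn2 and Nfatc1, which also rose. RefSeq promoter sequences on GRCm38.p6 were matched for 33 of the 40 genes, and each window was read over the 250 bases before the start. All windows of the table (32851) had a median of 6 CG dinucleotides, and 37.8% had at least 10. Of the 48 windows of the 33 genes 17 (35.4%) had at least 10, a share near that of all windows. Among the called genes these were 5 of the 11 windows of genes that rose and 0 of the 4 windows of genes that fell. The sequences below are those of the 2 largest rises, of the CG-rich Nfatc2 and of 2 genes that fell, trimmed to bases before any annotated exon and printed 5′ to 3′ on the gene's strand, with CG dinucleotides in capitals. They lie at chr2:117343002-117343127, minus strand (Rasgrp1), chr5:72752778-72753027, minus strand (Txk), chr2:168601658-168601907, minus strand (Nfatc2), chr6:124738715-124738959, minus strand (Ptpn6) and chr4:129573642-129573891, minus strand (Lck, the window before its outermost start).
Rasgrp1: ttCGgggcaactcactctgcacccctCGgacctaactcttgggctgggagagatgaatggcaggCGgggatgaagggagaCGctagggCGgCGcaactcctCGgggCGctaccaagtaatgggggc
Txk: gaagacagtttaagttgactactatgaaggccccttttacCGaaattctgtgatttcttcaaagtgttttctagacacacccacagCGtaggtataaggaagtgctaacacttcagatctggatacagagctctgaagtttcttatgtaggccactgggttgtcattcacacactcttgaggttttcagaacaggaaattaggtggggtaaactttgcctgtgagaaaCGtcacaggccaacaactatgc
Nfatc2: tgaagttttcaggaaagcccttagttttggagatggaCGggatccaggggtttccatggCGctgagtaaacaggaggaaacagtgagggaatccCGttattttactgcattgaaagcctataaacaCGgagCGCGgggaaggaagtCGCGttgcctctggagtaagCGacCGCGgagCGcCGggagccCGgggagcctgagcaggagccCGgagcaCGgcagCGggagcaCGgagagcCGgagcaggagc
Ptpn6: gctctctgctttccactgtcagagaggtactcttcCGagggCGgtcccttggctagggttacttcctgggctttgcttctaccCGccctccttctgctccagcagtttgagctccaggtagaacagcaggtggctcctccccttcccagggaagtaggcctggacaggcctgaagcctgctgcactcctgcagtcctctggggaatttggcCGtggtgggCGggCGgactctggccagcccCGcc
Lck: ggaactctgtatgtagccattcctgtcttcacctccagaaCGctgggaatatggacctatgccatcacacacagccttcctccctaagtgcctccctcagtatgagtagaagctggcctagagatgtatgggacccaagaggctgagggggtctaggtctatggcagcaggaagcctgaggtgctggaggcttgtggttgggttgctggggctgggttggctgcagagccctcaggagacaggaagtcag
The Nfatc2 window held 19 CG dinucleotides in 250 bases and the shorter Rasgrp1 stretch 8 in 126, whereas Txk held 3, Ptpn6 7 and Lck 1. Before trimming, the Rasgrp1 window of 250 bases held 21. The windows of Prkcq and Cblb, which rose but are not printed, held 30 and 14. The GC box GGGCGG, searched on both strands, was matched 4 times in the Ptpn6 stretch and 1 time in that of Rasgrp1, and is present in 32.7% of all windows. The RUNX motif TGTGGT was matched 1 time in the Lck window and is present in 14% of all windows. The TATA box TATAAA was matched 1 time in the Nfatc2 window (12.4% of all windows hold it). The ETS core CCGGAA, the cyclic AMP response element TGACGTCA and the E-box CAGCTG, also searched on both strands and held by 12%, 1.55% and 13% of all windows, were matched in none of the 5 printed. No value of these data measures binding or histone marks at these windows.

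Among the receptor genes, the zeta chain rose while the other CD3 chains did not pass. Cd247 (chr1:165788681-165877277), which encodes the subunit richest in tyrosine motifs, was at 401, 429, 448 and 418 CPM in Ezh2-deficient replicates 1 to 4. Cd247 stood at 346, 305, 282, 293 and 298 CPM in WT replicates 1 to 5. Every Ezh2-deficient library was above every WT library, a 1.39-fold difference (log2 change of 0.47 with an SE of 0.08, adjusted p = 0.00137). Its exons overlap on the opposite strand with those of Pou2f1, over 56.4% of their annotated length, and Pou2f1 was at 138 ± 6.52 CPM without Ezh2 and 117 ± 15.8 CPM in WT (log2 change 0.24, adjusted p = 0.107). The strand setting of the counting is not known here, so the part of Pou2f1 reads in the Cd247 counts was not tested.

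Cd3e, Cd3d and Cd3g, the epsilon, delta and gamma chains, lie side by side on chromosome 9 between 44969572 and 45009627. Cd3e was at 259.9 ± 30.8 CPM without Ezh2 and 234 ± 13.4 CPM in WT (log2 change 0.15, 95% interval -0.04 to 0.34, adjusted p = 0.22) and Cd3d at 306 ± 21.5 CPM without Ezh2 and 302 ± 30.6 CPM in WT (log2 change 0.02, 95% interval -0.17 to 0.21, adjusted p = 0.903). Cd3g, one of the 5 highest genes per kilobase, was at 249, 239, 250.3 and 252 CPM in Ezh2-deficient replicates 1 to 4. Cd3g stood at 224, 224, 206, 224 and 302 CPM in WT replicates 1 to 5 (log2 change 0.07, 95% interval -0.15 to 0.29, adjusted p = 0.654). In these 3 genes the groups overlapped, and WT replicate 5 held the highest Cd3d and Cd3g values of all 9 libraries. Their intervals leave room for changes of up to 0.34 on the log2 scale. The coreceptor gene Cd4 was at 423, 404, 434 and 392 CPM in Ezh2-deficient replicates 1 to 4. Cd4 stood at 465, 450.0, 463, 485 and 487 CPM in WT replicates 1 to 5. All Ezh2-deficient libraries were below all WT libraries, yet the difference of -0.19 (log2, SE 0.07) missed the threshold (adjusted p = 0.0644), and it passed under upper-quartile and total-count scaling and in DESeq2 (adjusted p = 0.0491, 0.0338 and 0.0267).

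Of the 5 kinase genes, Txk rose, Lck fell and 3 did not pass, where 13.1% of all tested genes rose and 8.8% fell. Lck (chr4:129548344-129573641), the Src-family kinase that starts the cascade, was at 524, 545, 512 and 499 CPM in Ezh2-deficient replicates 1 to 4. Lck stood at 616, 669, 665, 690.1 and 554 CPM in WT replicates 1 to 5. The groups did not overlap, and Lck was 1.23-fold lower without Ezh2 (log2 change of -0.30 with an SE of 0.08, adjusted p = 0.0213). This call was lost without Ezh2-deficient replicate 3 (log2 change -0.31, adjusted p = 0.052) and without the library of highest Cd8a in each group (log2 change -0.25, adjusted p = 0.0886). Fyn, the second Src-family kinase of T cells, was at 336 ± 18.4 CPM without Ezh2 and 316 ± 44.7 CPM in WT (log2 change 0.09, 95% interval -0.13 to 0.31, adjusted p = 0.555), and Zap70, which docks on the phosphorylated CD3 chains, at 135 ± 11.5 CPM without Ezh2 and 163 ± 27.6 CPM in WT (log2 change -0.27, 95% interval -0.53 to -0.02, adjusted p = 0.113). Both overlapped between the groups. The Zap70 difference passed without WT replicate 5, the WT library with the lowest Zap70 value (log2 change -0.36, adjusted p = 0.0354).

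The Tec-family kinase genes Txk and Tec are neighbours on chromosome 5 (chr5:72695978-72752777 and chr5:72755716-72868483). Both kinases can phosphorylate phospholipase C gamma 1. Txk rose and Tec did not pass, and the difference between their changes was not tested. Txk was at 109, 95.1, 107 and 95.3 CPM in Ezh2-deficient replicates 1 to 4. Txk stood at 71.1, 55.0, 55.5, 59.3 and 73.4 CPM in WT replicates 1 to 5. Each Ezh2-deficient value exceeded each WT value, and Txk was 1.62-fold higher (log2 change of 0.69 with an SE of 0.10, adjusted p = 0.000858). Tec was at 36.8, 30.3, 25.4 and 44.3 CPM in Ezh2-deficient replicates 1 to 4. Tec stood at 54.4, 59.2, 32.8, 78.5 and 33.6 CPM in WT replicates 1 to 5, with a wide spread in both groups, and did not pass (log2 change -0.59, 95% interval -1.20 to 0.01, adjusted p = 0.14). It passed in 5 of 23 alternatives, among them DESeq2 (log2 change -0.61, adjusted p = 0.0431) and limma-voom with quality weights (log2 change -0.70, adjusted p = 0.0499).

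None of the 6 adaptor and effector genes passed, where 21.9% of all tested genes did. Lat, the membrane scaffold that Zap70 phosphorylates, was at 343, 389, 349 and 318 CPM in Ezh2-deficient replicates 1 to 4. Lat stood at 371, 363, 382, 387 and 337 CPM in WT replicates 1 to 5 (log2 change -0.07, 95% interval -0.24 to 0.10, adjusted p = 0.528), and its groups overlapped. Lcp2, which encodes Slp-76, was at 315 ± 30.3 CPM without Ezh2 and 350.2 ± 39.1 CPM in WT (log2 change -0.15, 95% interval -0.36 to 0.06, adjusted p = 0.284), and Grap2, which encodes the Gads adaptor that joins Lat to Slp-76, at 286 ± 21.6 CPM without Ezh2 and 265 ± 19.4 CPM in WT (log2 change 0.11, 95% interval -0.06 to 0.28, adjusted p = 0.348). The exchange factor gene Vav1 was at 240.4 ± 9.42 CPM without Ezh2 and 266 ± 19.9 CPM in WT (log2 change -0.15, 95% interval -0.31 to 0.01, adjusted p = 0.164). Plcg1, whose product releases diacylglycerol and inositol trisphosphate, was at 313 ± 13.3 CPM without Ezh2 and 366 ± 34.6 CPM in WT (log2 change -0.23, 95% interval -0.40 to -0.05, adjusted p = 0.067). The Plcg1 difference passed in 6 of 23 alternative analyses, among them DESeq2 (log2 change -0.24, adjusted p = 0.0414) and the fit without WT replicate 5 (log2 change -0.29, adjusted p = 0.0146). Themis, an adaptor best known from thymic selection, was at 115, 64.8, 81.2 and 141 CPM in Ezh2-deficient replicates 1 to 4. Themis stood at 87.9, 65.7, 25.5, 77.5 and 63.4 CPM in WT replicates 1 to 5. Its values ranged widely in both groups and overlapped, and the interval of its difference was the widest of the 40 (log2 change 0.65, 95% interval -0.15 to 1.44, adjusted p = 0.215).

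Of the 16 genes that restrain the receptor or set its threshold, 5 rose, 2 fell and 9 did not pass. Over all tested genes 13.1% rose and 8.8% fell. In the phosphatase and Csk arm, Ptprc (chr1:138062861-138175708), whose product CD45 both activates and restrains Lck, was at 2409, 2037, 2539 and 2594 CPM in Ezh2-deficient replicates 1 to 4. Ptprc stood at 1726, 1731, 1349, 1442 and 1604 CPM in WT replicates 1 to 5. The groups did not overlap, and Ptprc was 1.52-fold higher without Ezh2 (log2 change of 0.61 with an SE of 0.10, adjusted p = 0.00179). The counts sum over its splice forms. Ptpn6 (chr6:124720707-124738714), which encodes the inhibitory phosphatase SHP-1, went the other way, with 222, 245, 219 and 240.4 CPM in Ezh2-deficient replicates 1 to 4. Ptpn6 stood at 299, 310.2, 344, 358 and 240.4 CPM in WT replicates 1 to 5. It was 1.34-fold lower (log2 change of -0.42 with an SE of 0.11, adjusted p = 0.0156), and only WT replicate 5 overlapped the Ezh2-deficient range. Ptpn6 lies on chromosome 6, like Cd4 and Ezh2, and any bearing of this shared chromosome on the differences was not tested.

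Pag1 (chr3:9687479-9833679), the membrane anchor that brings Csk to Lck, was at 165, 152, 175 and 144 CPM in Ezh2-deficient replicates 1 to 4. Pag1 stood at 138, 133, 115, 91.3 and 116 CPM in WT replicates 1 to 5. It was 1.34-fold higher without overlap (log2 change of 0.42 with an SE of 0.11, adjusted p = 0.0192), a call lost without Ezh2-deficient replicate 1 or without Ezh2-deficient replicate 3 (adjusted p = 0.0683 and 0.078). Csk itself was at 325 ± 47.1 CPM without Ezh2 and 376 ± 47.8 CPM in WT (log2 change -0.21, 95% interval -0.46 to 0.04, adjusted p = 0.209). Ptpn2 (chr18:67665511-67724595), a phosphatase that acts on Lck and on STAT factors, was at 105, 94.1, 102 and 115 CPM in Ezh2-deficient replicates 1 to 4. Ptpn2 stood at 95.6, 89.2, 71.1, 80.0 and 87.7 CPM in WT replicates 1 to 5. Its rise (log2 change of 0.29 with an SE of 0.09, adjusted p = 0.0441) rested on values that overlap in Ezh2-deficient replicate 2 and WT replicate 1, and it missed the threshold in 15 of 23 alternatives (adjusted p = 0.021 to 0.302). Without 1 library at a time it held only without WT replicate 1. Ptpn22, a partner phosphatase of Csk, was at 107 ± 35.1 CPM without Ezh2 and 107 ± 22.1 CPM in WT (log2 change -0.00, 95% interval -0.51 to 0.51, adjusted p = 0.997).

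The surface inhibitors Cd5 and Cd6, neighbours on chromosome 19 whose products damp the signal from the receptor complex, had means within 1 SD of each other. Cd5 was at 411 ± 31.4 CPM without Ezh2 and 414 ± 45.4 CPM in WT (log2 change -0.01, 95% interval -0.21 to 0.19, adjusted p = 0.959) and Cd6 at 314 ± 18.8 CPM without Ezh2 and 315 ± 27.0 CPM in WT (log2 change -0.00, 95% interval -0.18 to 0.17, adjusted p = 0.984). Both intervals span 0. The diacylglycerol kinase genes Dgka and Dgkz, whose products remove the messenger that activates Rasgrp1, did not pass either. Dgka was at 594, 617, 609.8 and 718 CPM in Ezh2-deficient replicates 1 to 4. Dgka stood at 694, 704, 679, 764 and 777 CPM in WT replicates 1 to 5 (log2 change -0.19, 95% interval -0.37 to -0.01, adjusted p = 0.117), and Dgkz at 448 ± 53.2 CPM without Ezh2 and 495 ± 69.2 CPM in WT (log2 change -0.14, 95% interval -0.39 to 0.11, adjusted p = 0.386). The groups overlapped for Dgka only through Ezh2-deficient replicate 4, without which Dgka passed (log2 change -0.27, adjusted p = 0.0426).

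Of the 4 ubiquitin ligase and TULA genes, Cblb rose, Ubash3a fell and 2 did not pass, where 21.9% of all tested genes passed. Cblb (chr16:52031225-52208048), the Cbl family ligase that sets the need for costimulation, was at 136, 119, 136 and 141 CPM in Ezh2-deficient replicates 1 to 4. Cblb stood at 101, 100.3, 93.9, 94.4 and 92.3 CPM in WT replicates 1 to 5. It was 1.38-fold higher without overlap (log2 change of 0.47 with an SE of 0.07, adjusted p = 0.00101), with a WT coefficient of variation of 4.06%. Its paralogue Cbl was at 273 ± 13.1 CPM without Ezh2 and 247 ± 28.8 CPM in WT (log2 change 0.15, 95% interval -0.05 to 0.34, adjusted p = 0.254). Ubash3a (chr17:31207873-31246892), which encodes the T cell form of the TULA proteins that bind Cbl, was at 59.5, 64.7, 70.8 and 54.2 CPM in Ezh2-deficient replicates 1 to 4. Ubash3a stood at 74.7, 73.6, 92.1, 82.7 and 84.4 CPM in WT replicates 1 to 5. It was 1.31-fold lower without overlap (log2 change of -0.39 with an SE of 0.10, adjusted p = 0.015), a call lost without the library of highest Cd8a in each group (log2 change -0.32, adjusted p = 0.0659). Ubash3b, the paralogue with the stronger phosphatase, was at 124 ± 19.8 CPM without Ezh2 and 100.3 ± 9.98 CPM in WT and did not pass (log2 change 0.31, 95% interval 0.07 to 0.55, adjusted p = 0.0584). Whether the paralogues differ in their change was not tested. Sla2 (chr2:156872457-156887192), a Src-like adaptor that lowers receptor levels at the surface, was at 59.6, 66.4, 71.8 and 61.2 CPM in Ezh2-deficient replicates 1 to 4. Sla2 stood at 39.5, 40.2, 40.4, 46.1 and 58.7 CPM in WT replicates 1 to 5. Sla2 was 1.44-fold higher (log2 change of 0.52 with an SE of 0.12, adjusted p = 0.00979), with WT replicate 5 just under the lowest Ezh2-deficient value. Its exons overlap those of Rab5if on the other strand over 23.6% of their length, and Rab5if was at 67.3 ± 2.33 CPM without Ezh2 and 77.2 ± 7.07 CPM in WT (log2 change -0.20, adjusted p = 0.095). The related Sla was at 345 ± 36.3 CPM without Ezh2 and 297 ± 58.3 CPM in WT (log2 change 0.22, 95% interval -0.08 to 0.51, adjusted p = 0.266).

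Of the 8 downstream genes, 4 rose, none fell and 4 did not pass, where 13.1% of all tested genes rose and 8.8% fell. Rasgrp1 (chr2:117279993-117343001), the exchange factor through which diacylglycerol activates Ras, had the largest change of the 40, with 833, 708, 809.6 and 827 CPM in Ezh2-deficient replicates 1 to 4. Rasgrp1 stood at 494, 463, 338, 380.1 and 497 CPM in WT replicates 1 to 5. The lowest Ezh2-deficient value exceeded the highest WT value by more than the SD of either group, and Rasgrp1 was 1.83-fold higher (log2 change of 0.87 with an SE of 0.12, adjusted p = 0.000466). Prkcq (chr2:11172108-11301222), the protein kinase C theta gene, was at 503, 475, 537 and 510.2 CPM in Ezh2-deficient replicates 1 to 4. Prkcq stood at 362, 357, 286, 318 and 414 CPM in WT replicates 1 to 5. It was 1.46-fold higher without overlap (log2 change of 0.54 with an SE of 0.10, adjusted p = 0.00299). Sos1, the other Ras exchange factor, was at 46.0 ± 3.17 CPM without Ezh2 and 39.2 ± 5.53 CPM in WT (log2 change 0.23, 95% interval -0.00 to 0.46, adjusted p = 0.136).

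Bcl10 and Malt1, partners in the complex that links protein kinase C theta to NF-kappaB, did not pass. Bcl10 was at 69.7 ± 4.66 CPM without Ezh2 and 69.4 ± 5.97 CPM in WT (log2 change 0.01, 95% interval -0.18 to 0.19, adjusted p = 0.968), and Malt1 at 329.8, 189, 219.7 and 334 CPM in Ezh2-deficient replicates 1 to 4. Malt1 stood at 183, 191, 138, 266 and 178 CPM in WT replicates 1 to 5 (log2 change 0.49, 95% interval 0.02 to 0.95, adjusted p = 0.12). The Malt1 values of both groups were spread widely, and the groups overlapped. Among the calcineurin-dependent NFAT factors, Nfatc2 (chr2:168476410-168601657) was at 281, 302, 305 and 255 CPM in Ezh2-deficient replicates 1 to 4. Nfatc2 stood at 245, 228, 179.7, 206 and 236 CPM in WT replicates 1 to 5. It was 1.30-fold higher without overlap (log2 change of 0.38 with an SE of 0.10, adjusted p = 0.015), a call lost without Ezh2-deficient replicate 1, 2 or 3 (adjusted p = 0.0516, 0.0518 and 0.0691). Nfatc1 (chr18:80606205-80713071), the family member induced by activation, was at 160.3, 149, 147 and 136 CPM in Ezh2-deficient replicates 1 to 4. Nfatc1 stood at 134, 127, 129, 128 and 112 CPM in WT replicates 1 to 5. Its groups did not overlap, but the 1.17-fold rise (log2 change of 0.23 with an SE of 0.08, adjusted p = 0.0457) missed the threshold in 19 of 23 alternatives (adjusted p = 0.0266 to 0.263), including each left-out library. Nfatc3 was at 339 ± 29.5 CPM without Ezh2 and 329.5 ± 37.5 CPM in WT (log2 change 0.04, 95% interval -0.17 to 0.25, adjusted p = 0.801).

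**Figure D3:**
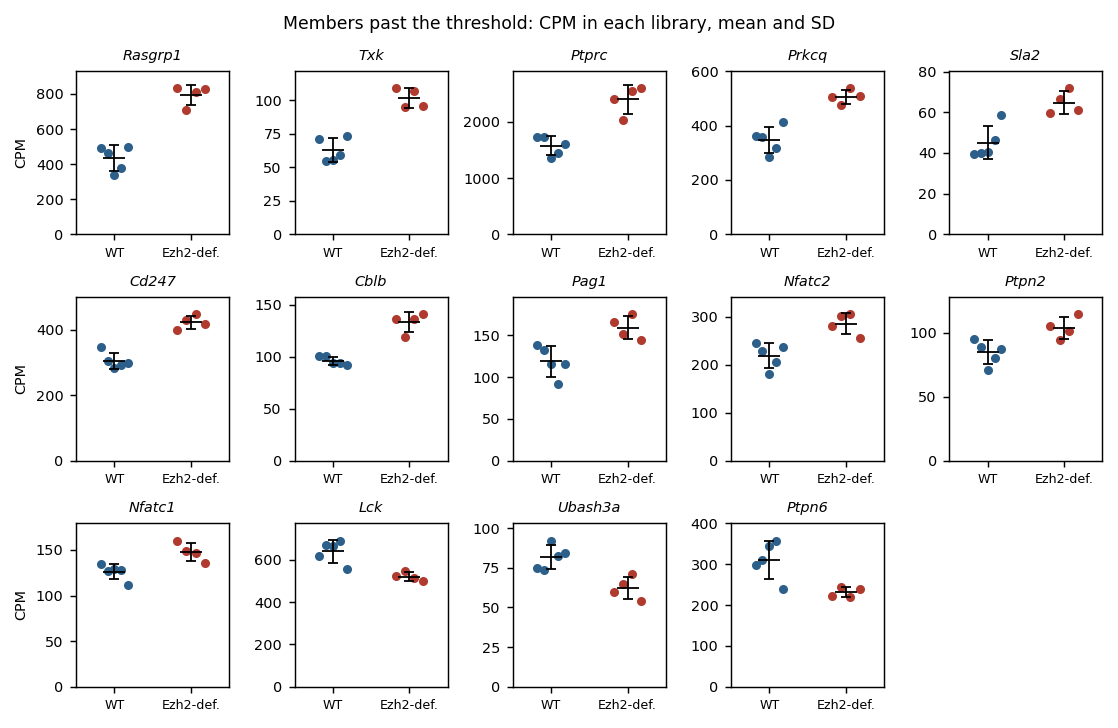
CPM of the 14 genes past the threshold in each WT (blue) and Ezh2-deficient library (red), with mean and SD; each axis starts at 0. The groups are separate in 12 panels and touch or overlap for Ptpn2 and Ptpn6.

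**Figure D4:**
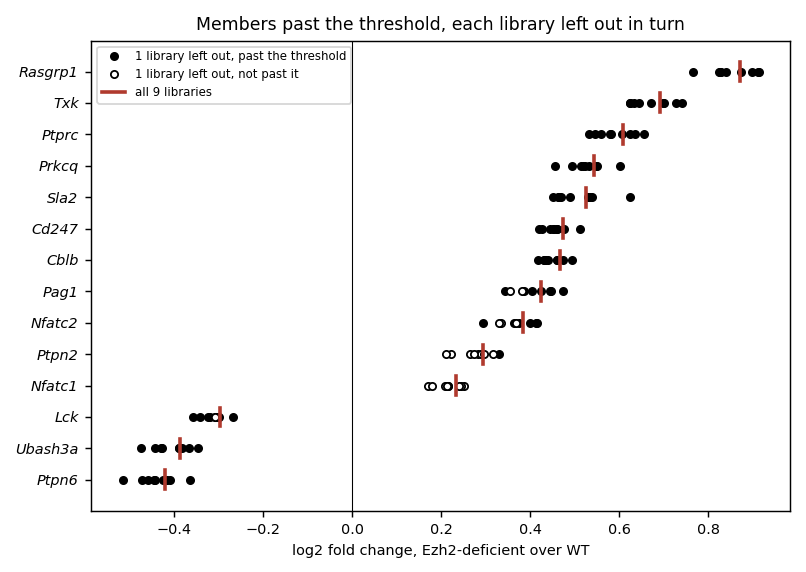
Log2 fold change of the 14 called genes with each of the 9 libraries left out in turn (points, filled where adjusted p was under 0.05) and with all 9 (red bars). Nfatc1 has no filled point and Ptpn2 has 1.

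The libraries of the high and the low hypoxia sets were also compared within each set. These fits use subsets of the same libraries, so for genes without overlap the sign within a set is fixed and shows nothing about stability. In the high set (2 Ezh2-deficient against 3 WT) 13 of the 40 passed, 9 upward and 4 downward, where 12.6% of genes passed. In the low set (2 against 2) 0 passed with edgeR, where 4.13% of genes did. The change of Rasgrp1 was 0.89 in the high and 0.84 in the low set (adjusted p = 0.00268 and 0.0735), that of Ptprc 0.61 and 0.60 (adjusted p = 0.0132 and 0.0979) and that of Cd247 0.37 and 0.57 (adjusted p = 0.0423 and 0.0511).

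For Tec the 5 high-set libraries all lay above the 4 low-set libraries. This held for 1 of the 40 genes, a share near the 2.43% of all tested genes, and none of the 40 showed the reverse (1.07%). In the high set Tec was at 36.8 and 44.3 CPM without Ezh2 against 54.4, 59.2 and 78.5 CPM in WT, and in the low set at 30.3 and 25.4 against 32.8 and 33.6 CPM. Within each set the Ezh2-deficient values were the lower ones. With the score as a covariate the difference passed (log2 change -0.47, adjusted p = 0.0118). Themis and Malt1 also passed with the covariate (log2 change 0.71, adjusted p = 0.0489 for Themis, and log2 change 0.52, adjusted p = 0.00596 for Malt1) and within the high set (adjusted p = 0.0144 and 0.0364). Ptpn22 was at 0.22 in the high and -0.28 in the low set on the log2 scale, and passed in neither (adjusted p = 0.193 and 0.545).

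**Figure D5:**
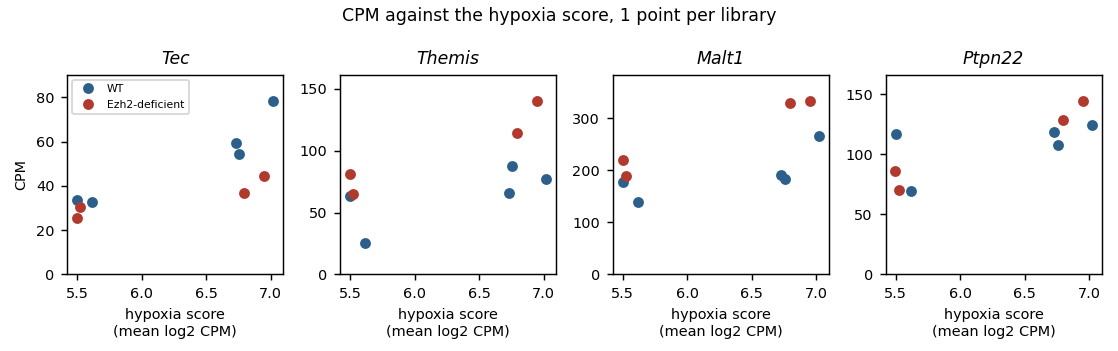
CPM of Tec, Themis, Malt1 and Ptpn22 in each library against its hypoxia score (mean log2 CPM of 32 genes). The scores fall into 2 sets, and for Tec the red points lie under the blue ones at similar scores, with all high-score libraries above all low-score ones.

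Beyond the 40 genes, a list of 106 further genes of receptor signalling was examined, of which 104 were tested (Nfatc4 and Rcan2 were too low). Of these 21 rose, 6 fell and 77 did not pass, 26% against 21.9% of all genes, with a median log2 fold change of 0.0593. Without 1 library the rises numbered 9 to 20 and the falls 5 to 12. There were 9 rises without Ezh2-deficient replicate 3, where 14.1% of all genes passed, and 12 falls without WT replicate 5, where 23.4% did. The rise with the smallest adjusted p was that of Ppp3ca, the calcineurin catalytic subunit that acts on NFAT factors, with 122, 113, 133 and 123 CPM in Ezh2-deficient replicates 1 to 4. Ppp3ca stood at 68.6, 68.4, 57.7, 53.3 and 66.8 CPM in WT replicates 1 to 5. The Ezh2-deficient values were all above the WT range (log2 change of 0.96 with an SE of 0.09, adjusted p = 5.82e-05). The kinase gene Braf (log2 change 0.65, adjusted p = 0.000165), which acts below Ras, and the protein kinase C gene Prkcb (log2 change 0.65, adjusted p = 0.000701) rose as well. Rasa1, a Ras GTPase-activating protein gene (log2 change 0.71, adjusted p = 0.00182), Ptpn12, a phosphatase gene (log2 change 0.61, adjusted p = 0.00235), and Pik3r1, the regulatory subunit of phosphoinositide 3-kinase (log2 change 0.38, adjusted p = 0.00473), completed the 6 with the smallest adjusted p. The 6 that fell were Cabin1, whose product inhibits calcineurin (log2 change -0.40, adjusted p = 0.00477), Map3k14 (log2 change -0.51, adjusted p = 0.00814), the adaptor gene Grb2 (log2 change -0.26, adjusted p = 0.0174), the protein kinase D gene Prkd2 (log2 change -0.43, adjusted p = 0.0175), the calcium channel gene Orai2 (log2 change -0.42, adjusted p = 0.0246) and Wipf1, whose product binds the actin regulator WASP (log2 change -0.23, adjusted p = 0.0414).

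Of 20 transcripts that receptor stimulation is known to induce or that mark activated cells, 5 rose, 2 fell and 13 did not pass, 35% against 21.9% of all genes. This list too was chosen with earlier results of these data known, so the comparison of shares is not a test. Those that rose were Nr4a1 and Nr4a2 (log2 change 1.04, adjusted p = 0.0421, and log2 change 1.82, adjusted p = 0.00192), Cd44 (log2 change 0.51, adjusted p = 0.00287), Spry1 (log2 change 0.76, adjusted p = 0.00173) and Bhlhe40 (log2 change 0.48, adjusted p = 0.0397). The transferrin receptor gene Tfrc and the Egr corepressor gene Nab2 fell (log2 change -1.07, adjusted p = 0.000398, and log2 change -0.58, adjusted p = 0.0278). The list had a median log2 fold change of -0.0334, and its members are named here because they passed the test.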

How the data were processed

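The authors deposited a table of raw counts per Ensembl gene (43432 genes, whole numbers, not normalized). STAR and the build GRCm38 were used, per the submitters' processing notes; the counter, its strand setting and its annotation were not given in the sources used here. Libraries were made with a stranded mRNA kit, per the labels' protocols. Symbols, positions and exon lengths came from GENCODE M21 on GRCm38 (42548 identifiers matched), and promoters from RefSeq on GRCm38.p6. The series' design text calls the 4 and 5 libraries biological replicates. No 2 libraries of the same group agreed within sampling noise (chi-square per degree of freedom at least 21.9), and pairs across the groups were not compared.

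Genes were filtered with edgeR's default rule (13685 of 22839 with a count), scaled with TMM factors and compared by the quasi-likelihood test of edgeR 4.0.16 in R 4.3.3 (robust, two-sided), with Benjamini-Hochberg adjusted p under 0.05 over all 13685. Values are mean ± SD of scaled CPM over 4 Ezh2-deficient or 5 WT libraries, and fold changes are Ezh2-deficient over WT. CPM per kilobase divides by the merged exon length of GENCODE's basic set. On counts simulated for this comparison over 13685 genes, the test called 31 of 67 genes changed 1.5-fold, 42 of 67 changed 2-fold and 57 of 66 changed 4-fold, with the right sign, and 6 unchanged genes. Far fewer genes were changed there than the 3001 that passed in the data, and they were drawn from all levels. The median SE was 0.0974 for the 40 genes and 0.134 over all genes. These shares therefore do not give the power for the 40.

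The 40 genes and the lists were chosen with earlier results of these data known. Values in every library are given for called genes, for the 5 highest per kilobase and, chosen after their values were seen, for Cd4, Tec, Themis and Malt1. Of the further pathway genes, those with the 6 smallest adjusted p in each direction were named, and the called genes among the stimulation-induced transcripts were named after their values were seen, as were Pou2f1 and Rab5if. Some marker genes are not reported here. Alternatives were DESeq2 1.42.0, limma-voom (limma 3.58.1) with or without quality weights, scaling by RLE, upper quartile or total count, no filter or a filter of 1 CPM in 4 libraries, a block for the replicate number, leaving out each library, the highest-Cd8a library of each group left out, hypoxia score or sex as a covariate, and the high or low hypoxia set alone. Libraries were put in the 2 hypoxia sets at the largest gap of the score. Sex was inferred from Xist against the Y-linked genes Ddx3y, Kdm5d, Eif2s3y and Uty, and each group held both sexes.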

Additional observations from a re-analysis of the deposited data

Results flagged for a closer look

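Cd3g in WT replicate 5 was at 302 CPM, where the other 4 were at 206 to 224 CPM, a gap of 0.808 of the group's range against Dixon's critical value of 0.71 for 5 samples. Of 80 groups of values (40 genes in 2 groups) this was the only one past that limit, fewer than the 1 in 20 that chance gives. Without WT replicate 5 the log2 fold change of Cd3g was 0.16 (adjusted p = 0.0878).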

How the results depend on the processing

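Of the 14 called genes, Cd247, Txk, Ptprc, Ptpn6, Cblb, Sla2, Rasgrp1 and Prkcq passed in 22 of 23 alternatives, all but the low hypoxia set. Ubash3a passed in 21, Lck in 20, Pag1 in 19, Nfatc2 in 18, Ptpn2 in 8 and Nfatc1 in 4. With the low hypoxia set alone (2 against 2 libraries) 0 of the 40 rose and 0 fell, 2 of the other pathway genes rose and 0 fell, and 570 genes passed in all, against 1764 in the high set, where 10 of the other pathway genes rose. Falls among the 40 numbered 5 under total-count scaling, 6 in DESeq2, 6 in limma-voom with quality weights, 5 with the hypoxia score as a covariate and 1 without the library of highest Cd8a in each group (Ezh2-deficient replicate 4 and WT replicate 4). In these fits 22.9%, 24.2%, 24.3%, 28.6% and 14.7% of all genes passed, in the order given. Of the other pathway genes 13 rose with no filter (12.3% of all genes passed) and 10 without those 2 libraries. Falls of the other pathway genes numbered 10 in DESeq2, 10 with quality weights, 11 with the covariate and 3 without those 2 libraries. Leaving out each library in turn gave 1972 to 3168 genes in all (1972 without Ezh2-deficient replicate 3), 7 to 10 rises and 2 to 5 falls among the 40, a median log2 fold change of 0.0302 to 0.0863 (0.0302 without WT replicate 3), and 9 to 20 rises and 5 to 12 falls of the other pathway genes. The cause of these shifts was not tested. Correlations of same-numbered libraries, with each gene centred within its group, were 0.153, -0.0834, 0.114 and 0.187. None of the 4 Ezh2-deficient libraries correlated best with its own number. The best partner was always a WT library of the same hypoxia set. This check therefore cannot tell whether the replicate numbers pair the libraries. With the replicate number as a block 10 of the 40 rose and 5 fell, Tec among them (log2 change -0.68, adjusted p = 0.00441), and 2751 genes passed in all. The SE of the 40 log2 fold changes was 0.07 to 0.35.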

Other observations

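Within the WT group, replicate 5 held the highest value for 11 and the lowest for 14 of the 40 receptor signalling genes, and replicate 3 for 5 and 16. Replicate 1, which carries 1 floxed Ezh2 allele, held the highest value for 10 and the lowest for 2 genes and lay within the range of the other 4 WT libraries for 28. Its Cd247 value of 346 CPM was the highest of the WT group, and its Lck value of 616 CPM lay inside the WT range.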
